A study of Mus musculus with 18 samples.

Results

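The interleukins and their receptors were taken as the gene symbols that start with Il and a digit, without Il6, Il11, Il6ra and Il6st. The rule found 70 of the 25731 symbols in the deposited counts, and 39 of the 70 passed the low-count filter. Not all are interleukins or receptors: Il4i1 and Il4i1b encode enzymes that oxidise amino acids and Il1bos is an antisense transcript of Il1b, and all of them stayed under the filter. Since the strand setting of the counting is unknown, Il1b and Il1bos may share reads, as may the near-identical copies Il11ra1 and Il11ra2. The libraries came from hearts of adult male C57BL/6 mice labelled wild type (WT), taken at day 7 after surgery, with 1 library per animal and 6 animals per group. The groups were ischemia-reperfusion treated with decursin, a coumarin compound from a medicinal Angelica root (IR+Decursin), ischemia-reperfusion (IR), and sham surgery (SHAM). The labels and protocols used here give no dose or route of decursin, no length of ischemia, no exact age and no region of the heart. Each of the 3 batches named in the labels holds 1 group, so batch and group cannot be told apart.

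Libraries held 27.5 to 35.0 M counts, and the 10 cardiomyocyte markers of the labelled tissue, heart, were counted in every group. Xist, the RNA of the inactive X chromosome of females, had 14072 to 14232 counts in IR 3, IR 4 and IR+Decursin 2 and at most 8 in the other 15 libraries, although the labels give every animal as male. The gene model Gm26917 took 7.54% of counts in IR+Decursin 6 and 0.0558% to 0.915% elsewhere. Calls that change without these libraries are given with both values.

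Interleukins are secreted signals between leukocytes and tissue cells, and each acts through a receptor of 1 or more membrane chains. In the IL-1 family, IL-1α, IL-1β, IL-18 and IL-33 act through paired receptor chains, and the family brakes itself with a receptor antagonist (Il1rn), a decoy receptor (Il1r2) and a binding protein (Il18bp). Several other families, though not the IL-17 family, signal through JAK kinases and STAT factors and share chains. One such chain is the common gamma chain (Il2rg) of the receptors for IL-2, IL-4, IL-7, IL-9, IL-15 and IL-21. After infarction, IL-1β is known as a signal of early inflammation, and IL-33 is known as an alarmin released from damaged tissue.

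Promoter sequences were taken from RefSeq (GRCm38.p6), which listed 69 start sites for 56 of the 70 members. The 250 bases before the first listed start are shown for Il1b, for the antagonist gene Il1rn and for the alarmin gene Il33, since these 3 genes rose together in IR hearts. Capitals mark matches to TATAAA (sense strand) and to the AP-1 letters TGANTCA (either strand).
Il1b, chr2:129371140-129371389, minus strand: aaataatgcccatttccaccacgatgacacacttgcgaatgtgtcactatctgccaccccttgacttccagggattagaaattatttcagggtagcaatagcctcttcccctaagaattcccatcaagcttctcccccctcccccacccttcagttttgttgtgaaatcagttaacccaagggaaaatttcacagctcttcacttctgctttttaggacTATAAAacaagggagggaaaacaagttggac
Il1rn, chr2:24336610-24336859, plus strand: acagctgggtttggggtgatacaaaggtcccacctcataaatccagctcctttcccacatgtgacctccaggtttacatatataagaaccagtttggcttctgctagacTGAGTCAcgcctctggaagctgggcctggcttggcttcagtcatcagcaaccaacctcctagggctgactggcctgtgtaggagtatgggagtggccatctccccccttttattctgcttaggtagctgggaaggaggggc
Il33, chr19:29924863-29925112, plus strand: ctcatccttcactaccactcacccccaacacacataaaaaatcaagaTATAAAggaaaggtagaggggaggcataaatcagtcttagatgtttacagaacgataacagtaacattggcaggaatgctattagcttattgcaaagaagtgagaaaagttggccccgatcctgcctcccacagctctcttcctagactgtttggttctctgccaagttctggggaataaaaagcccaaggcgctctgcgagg
The match in Il1b starts at -31 from the start site, that in Il33 at -203 and the AP-1 match in Il1rn at -141. RefSeq lists 3 starts for Il1rn and 2 for Il33, and counts per gene do not tell which start was used. TATAAA was found in 11 of the 69 member windows (15.9%) and in 7.59% of all 32851 windows of this length, and TGANTCA in 11 (15.9%) and 6.75%. Of the other letters searched on both strands, TTCNNNGAA (STAT) stood in 11.6% of member windows and 7.02% of all windows, a kappaB motif in 10.1% and 4.11%, TTGCNNAA (C/EBP) in 17.4% and 9.56%, and GAGGAAGT (PU.1) in 2.90% and 2.44%. A match is a description of the letters and not a binding site.

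Per gene length, receptor chains stood highest. Il10rb, the chain shared by receptors of the IL-10 family, had the highest median of all members in each group, at 40.5 FPKM in IR+Decursin, 39.1 FPKM in IR and 39.9 FPKM in SHAM. Il11ra1, the receptor of IL-11, came next (31.2, 32.7 and 26.2 FPKM), followed by Il13ra1, a chain of the IL-13 receptor (16.6, 20.3 and 13.0 FPKM). Below them the order changed. In SHAM hearts the next was Il15 (12.5 FPKM), then Il2rg (5.92 FPKM), whereas in IR hearts Il2rg (18.0 FPKM), Il33 (16.7 FPKM) and Il4ra (14.7 FPKM) stood above Il15 (10.7 FPKM). Ranges of Il2rg, Il33 and Il4ra overlapped within IR. Il15 was the highest ligand by median in SHAM and in IR+Decursin and Il33 was the highest in IR, although in IR+Decursin Il15 (9.03 to 12.7 FPKM) and Il33 (3.40 to 14.7 FPKM) overlapped.

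**Figure D1:**
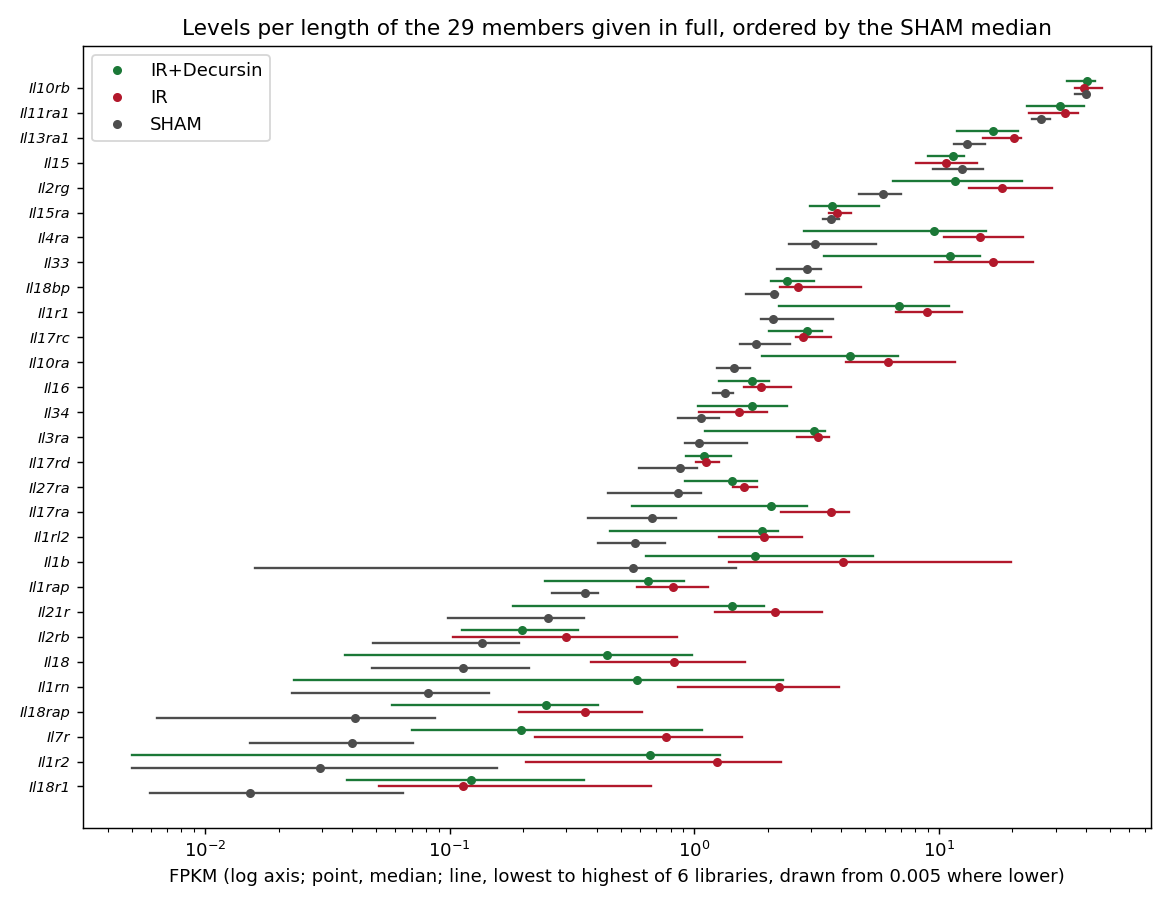
Levels per gene length (FPKM, log axis) of the 29 members given in full, with the median (point) and the lowest to highest of 6 libraries (line) for IR+Decursin, IR and SHAM, ordered by the SHAM median. Il10rb has about the same level in each group, and genes in the lower part of the plot lie further right in IR than in SHAM.

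IR against SHAM asks what injury changed. Of the 39 members tested, 24 rose in IR hearts (61.5%) and 2 fell (5.13%), where 46.9% of all 15088 genes tested were called, 25.2% higher and 21.7% lower. With total-count scaling, which moved the median of all genes to 0.31, the split of all genes was 7004 higher and 1057 lower, against 3808 and 3269 in the TMM fit, and 31 members rose and 0 fell. The median log2 fold change of the members was 1.17, against -0.00 for all genes. In 16 members every IR library lay above every SHAM library (15.4% of all genes), and in 1 every IR library lay below (11.6% of all genes). Of the 39, 15 were under the filter's level of 0.306 CPM in at least 1 SHAM library, and 12 of these rose: Il13ra2, Il17re, Il18, Il18r1, Il18rap, Il1b, Il1r2, Il1rn, Il21r, Il2rb, Il36g and Il7r. They owed their place among the genes tested in part to the injured groups, so the counts describe the members and support nothing on their own. In bulk heart RNA more cells of a type and more RNA per cell cannot be told apart.

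**Figure D2:**
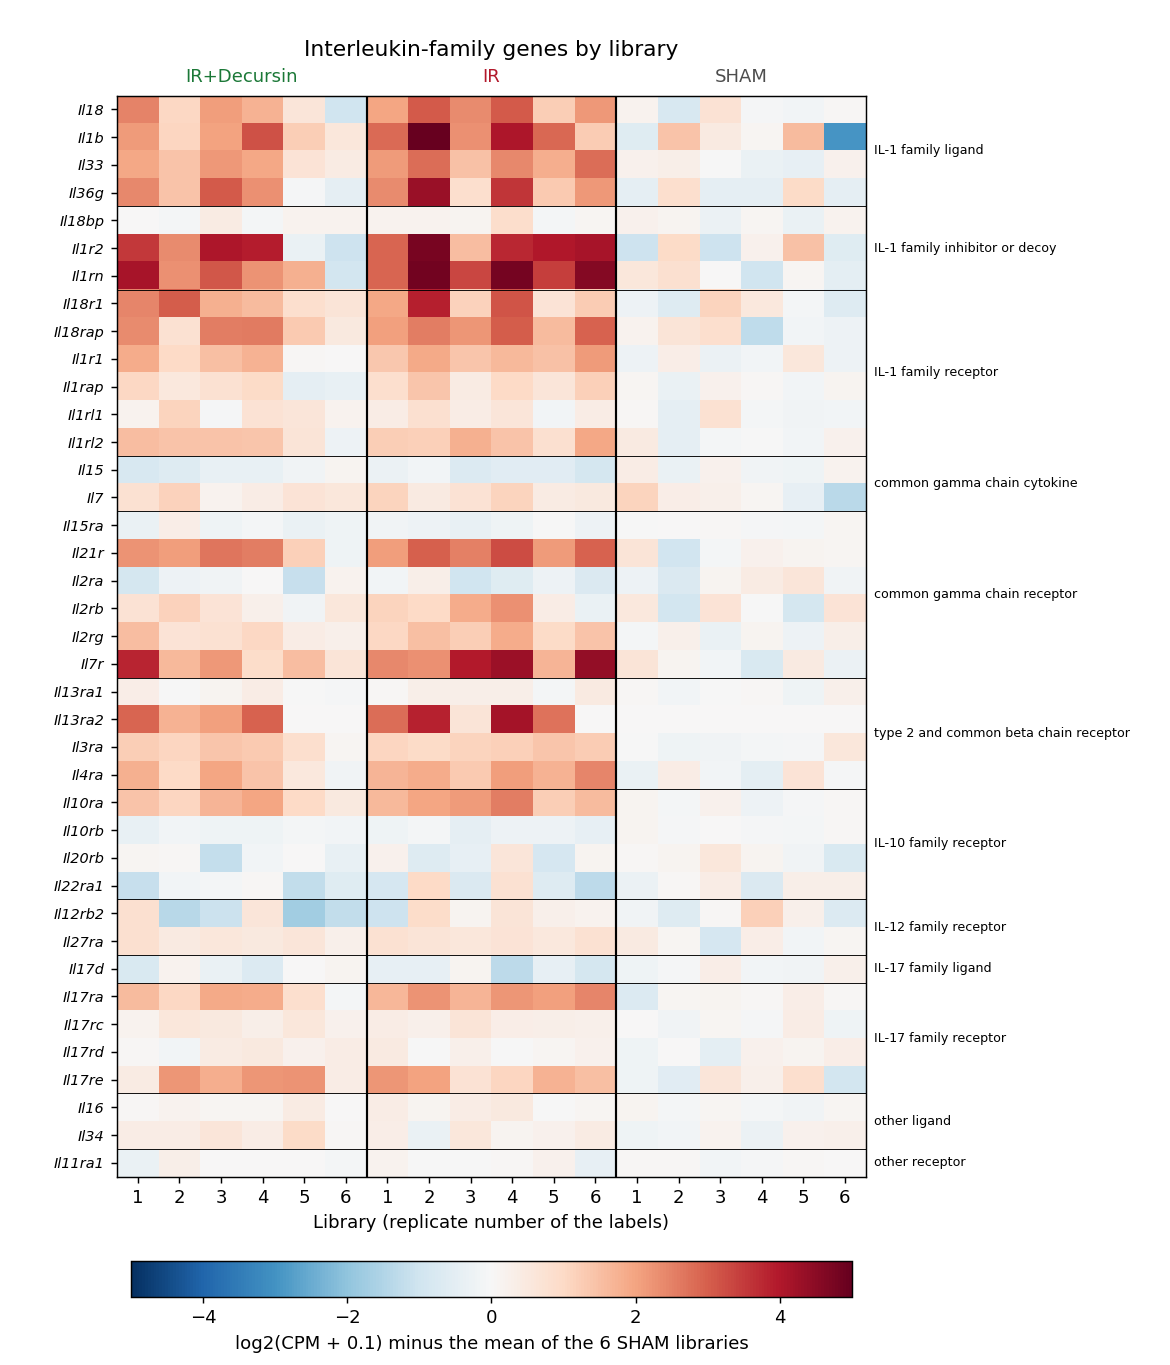
Level of each of the 39 members tested in each library, as log2(CPM + 0.1) minus the mean of the 6 SHAM libraries (shades end at 5 in either direction), with libraries in columns by group and genes in rows by role. IL-1 family genes and several receptor chains are redder in IR, IR+Decursin 5 and 6 are paler than IR+Decursin 1, 3 and 4, and Il10rb and Il15 are pale blue.

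All 4 IL-1 family ligands tested rose in IR hearts. Il33, the alarmin, had 25.7 CPM in the lowest, 45.3 CPM at the median and 65.0 CPM in the highest IR library, against 7.06, 9.98 and 11.49 CPM in SHAM. No IR library came near the SHAM range, and the log2 fold change was 2.30 ± 0.31 (SE, adjusted p = 2.10e-05, 6 of 6 libraries above SHAM). Il1b, which encodes IL-1β, ran from 2.44 to 33.3 CPM in IR (median 7.39) and from 0.0344 to 3.03 CPM in SHAM (median 1.17). The groups overlapped for IR 6, the change was 3.05 ± 0.74 (adjusted p = 0.00290, 5 of 6), and without IR 2, the highest library, it was 2.44 (adjusted p = 0.00846). Il18, whose product drives interferon-gamma release from lymphocytes, had 0.904 to 3.52 CPM in IR (median 1.96), against 0.146 to 0.605 CPM in SHAM (median 0.327), a rise of 2.68 ± 0.50 (adjusted p = 0.000244, 6 of 6). The fourth, Il36g, encodes IL-36γ and stayed under 1 CPM on average. It had no counts in 4 of 6 SHAM libraries and rose by 4.05 ± 1.03 (adjusted p = 0.00336), by 4.83 without SHAM 5 (adjusted p = 0.00361) and by 3.43 without IR 2 (adjusted p = 0.00985).

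Inhibitors of IL-1 rose in the same hearts, and the inhibitor of IL-18 did not pass the test. Il1rn, the IL-1 receptor antagonist, had 2.43 to 9.38 CPM in IR (median 5.77), against 0.0691 to 0.474 CPM in SHAM (median 0.251), a rise of 4.50 ± 0.70 (adjusted p = 6.24e-05, 6 of 6). Il1r2, the decoy receptor that binds IL-1 without signalling, had 0.492 to 5.40 CPM in IR (median 2.92), against 0 to 0.456 CPM in SHAM (median 0.0863). Both groups lay apart, although only just, since IR 3 had 0.492 and SHAM 5 had 0.456 CPM. The change was 4.08 ± 0.99 (adjusted p = 0.00267, 6 of 6) and 4.80 without SHAM 5 (adjusted p = 0.00270). Il18bp, which captures IL-18, had 9.51 to 18.6 CPM in IR and 8.14 to 11.8 CPM in SHAM, a difference of 0.25 ± 0.15 (adjusted p = 0.174).

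Set against the genes they oppose, the inhibitors did not move alike. For each library the counts of 2 genes were taken as a log2 ratio, with 0.5 added to each count, as a description without a test. Il1r2 to the signalling receptor Il1r1 stood at a median of -4.32 in IR (-6.41 to -3.50), against -7.32 in SHAM (-9.47 to -5.70). The ranges overlapped, since IR 3 lay below SHAM 2 and SHAM 5, and SHAM 1 and SHAM 3 had 0 counts of Il1r2, so that their ratios rest on the added 0.5. Il18bp to Il18 stood at 2.51 in IR (1.71 to 3.38), against 4.92 in SHAM (3.74 to 6.09), so every IR library lay below every SHAM library. Il18 had 4 to 15 counts per SHAM library, and Il18bp itself was not called. These are ratios of RNA counts, not corrected for gene length, and do not give protein levels. Il1rn to Il1b stood at -0.995 in IR (-1.83 to 1.71), against -2.42 in SHAM (-3.56 to 1.58), with wide overlap, and Il1b counts in SHAM were as low as 1.

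Among IL-1 family receptors 5 of 6 tested rose. Il1r1, the signalling receptor of IL-1, had 41.6 to 71.1 CPM in IR (median 47.9), against 13.5 to 24.6 CPM in SHAM (median 14.3), a rise of 1.63 ± 0.30 (adjusted p = 0.000364, 6 of 6). Its partner chain Il1rap rose by 0.95 ± 0.23 (adjusted p = 0.00250, 6 of 6), with a median of 9.94 CPM in IR and 5.42 CPM in SHAM. Il1rl2, the IL-36 receptor, rose by 1.45 ± 0.26 (adjusted p = 0.000202, 6 of 6; medians 8.33 and 3.16 CPM). Both chains of the IL-18 receptor rose, at low levels. Il18rap had a median of 1.59 CPM in IR and 0.234 CPM in SHAM (2.72 ± 0.49, adjusted p = 0.000161, 6 of 6), and Il18r1 had 0.565 and 0.0877 CPM (2.99 ± 0.72, adjusted p = 0.00210, 5 of 6, and 2.37 without IR 2, adjusted p = 0.00698). Il1rl1, the IL-33 receptor ST2, did not pass the test. It had 0.957 to 1.94 CPM in IR (median 1.42) and 0.766 to 1.86 CPM in SHAM (median 0.982), a difference of 0.41 ± 0.26 (adjusted p = 0.201, interval -0.14 to 0.97). Counts per gene hold its soluble and membrane forms together. The log2 count ratio of Il1rl1 to its ligand gene Il33 had a median of -4.96 in IR (-5.49 to -4.17), against -3.05 in SHAM (-3.88 to -2.31), and the groups did not overlap.

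These receptor genes lie next to each other. In RefSeq's order for GRCm38.p6, Il1r2, Il1r1, Il1rl2, Il1rl1, Il18r1 and Il18rap follow one another on chromosome 1 with no other protein-coding gene between them. Of this run of 6, all but Il1rl1 were called higher in IR. Of the 39 members tested 61.5% were called higher, and of all genes 25.2%. A pair of members on chromosome 7, Il4ra and Il21r, are also neighbours, as are Il17re and Il17rc on chromosome 6, and all 4 were called higher. Without the libraries with Xist, Il17rc was not called (adjusted p = 0.114). Il1r2, Il18r1, Il18rap, Il21r and Il17re were under the filter's level in at least 1 SHAM library. They were tested in part because of the injured groups. A role of position was not tested. The neighbours Il2ra (-0.44) and Il15ra (-0.21) on chromosome 2 were tested too, and neither was called. In all, 30 of the 70 members stood in 13 such runs, and in the other 9 at most 1 member was tested.

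**Figure D3:**
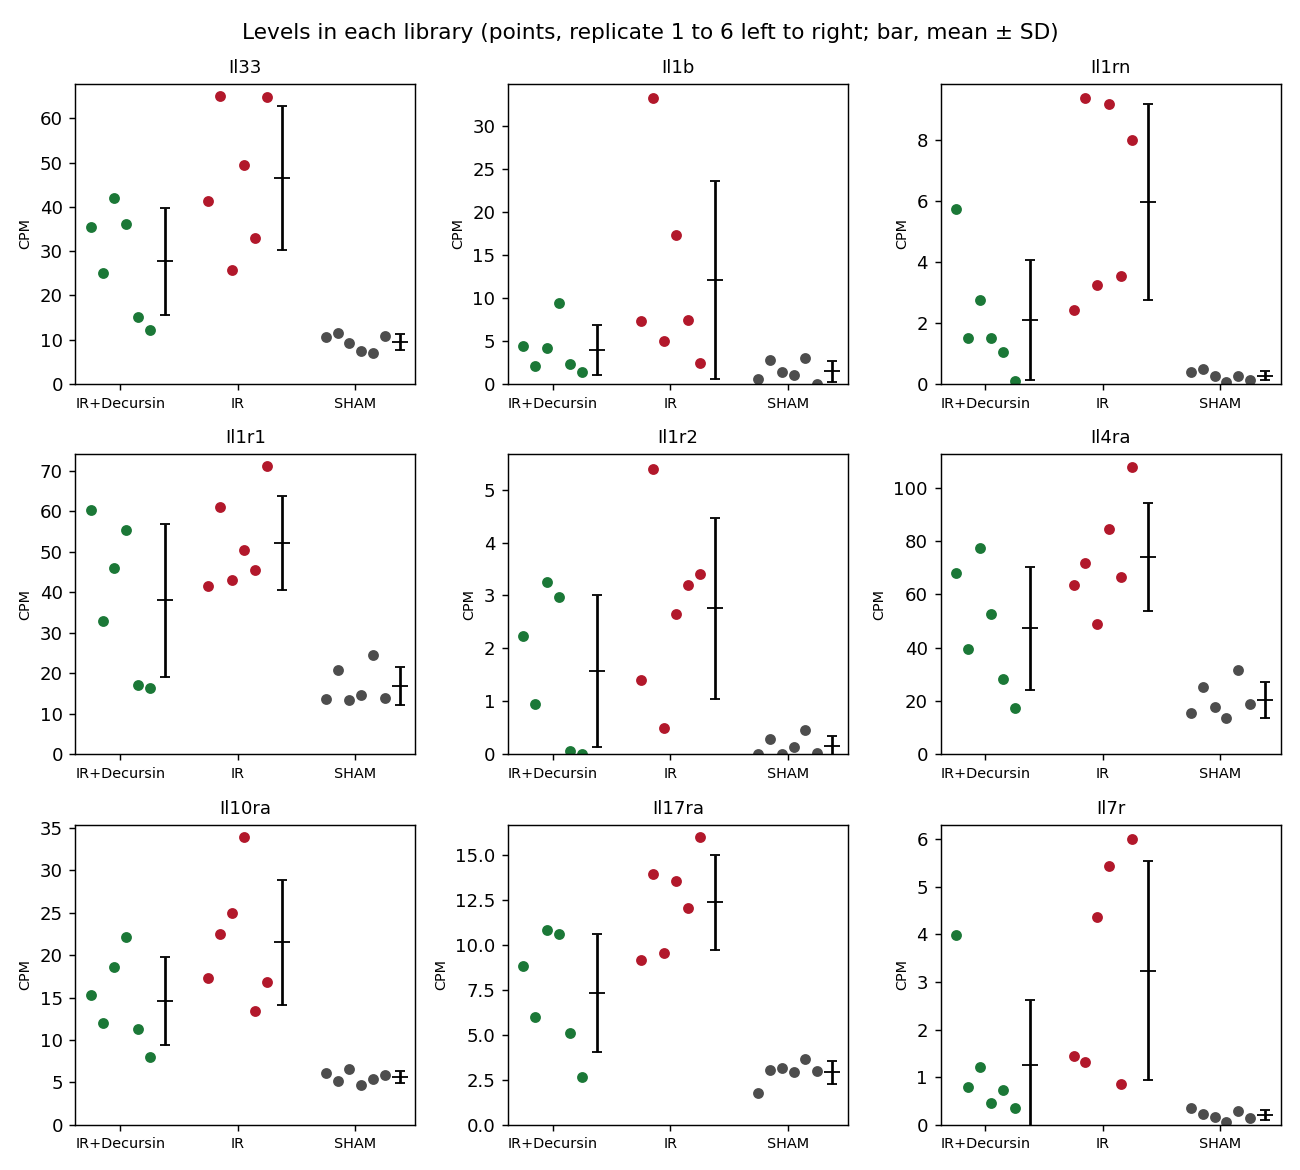
CPM in each library of 9 members (points, replicates 1 to 6 from left to right, with mean ± SD of 6 libraries at the right of each group, cut at 0) in IR+Decursin, IR and SHAM, each panel with its own axis from 0. IR lies above SHAM in 8 of the panels with overlap only for Il1b, and IR+Decursin 6 is the lowest of its group in all 9.

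Receptor chains of the common gamma family rose, and the ligand Il15 fell. Il2rg, the shared chain, had 21.0 to 40.2 CPM in IR (median 27.5), against 8.68 to 13.3 CPM in SHAM (median 11.1), a rise of 1.35 ± 0.21 (adjusted p = 4.71e-05, 6 of 6). Il21r, the IL-21 receptor of lymphocytes and myeloid cells, had medians of 5.59 CPM in IR and 0.802 CPM in SHAM, a rise of 2.80 ± 0.40 (adjusted p = 2.56e-05, 6 of 6). Il7r, the IL-7 receptor of T cells and innate lymphoid cells, had 0.850 to 6.00 CPM in IR (median 2.91), against 0.0691 to 0.350 CPM in SHAM (median 0.190), a rise of 3.96 ± 0.69 (adjusted p = 0.000144, 6 of 6). Within IR it was highest in IR 3, 4 and 6. Il2rb, a chain of the IL-2 and IL-15 receptors, rose by 1.28 ± 0.44 (adjusted p = 0.0207, 4 of 6). This rested on the libraries with Xist: without them it was 0.56 higher and not called (adjusted p = 0.309), and it was not called without IR 3 (1.13, adjusted p = 0.0511) or without IR 4 (0.93, adjusted p = 0.0806). Il15, a ligand that supports natural killer and memory T cells, fell to 21.3 to 35.8 CPM in IR (median 26.6), against 31.0 to 50.7 CPM in SHAM. The change was -0.52 ± 0.16 (adjusted p = 0.0103, 4 of 6 libraries below SHAM), and it was not called when libraries holding Xist were left out (-0.46, adjusted p = 0.0553), nor when libraries were scaled by total counts (-0.21, adjusted p = 0.191). Il15ra, its presenting receptor, was -0.21 ± 0.10 (adjusted p = 0.0873), and Il2ra and Il7 did not pass either.

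Of the type 2 and common beta chain receptors, Il4ra, Il3ra and Il13ra2 rose. Il4ra, shared by the receptors of IL-4 and IL-13, had 48.9 to 108 CPM in IR (median 69.2), against 13.8 to 31.5 CPM in SHAM (median 18.2), a rise of 1.85 ± 0.32 (adjusted p = 0.000194, 6 of 6). IR 6 was the highest library and SHAM 5 the highest of its group. Il3ra, the specific chain of the IL-3 receptor, rose by 1.17 ± 0.18 (adjusted p = 3.87e-05, 6 of 6; medians 8.65 CPM in IR and 3.57 CPM in SHAM). Il13ra2, a decoy receptor for IL-13, had 153 counts in IR and 0 in SHAM, at least 39.8-fold higher against a floor of 3 counts over the SHAM group. IR 6 had 0 counts too, so 5 of 6 IR libraries lay above SHAM (adjusted p = 0.00504). Il13ra1, the signalling chain, was 0.22 ± 0.10 higher (adjusted p = 0.0903), and was called with total-count scaling (0.53) and without SHAM 6 or IR 5. The type 2 ligands were barely counted, with at most 13 counts over a group of 6 libraries for Il5, 2 for Il13 and 5 for Il4. Il3, the ligand gene of Il3ra, is not among the 70 symbols found.

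In the IL-10, IL-12 and IL-17 families, 1 of 4, 1 of 2 and 3 of 4 receptor chains tested rose. They include the ligand-binding chains Il10ra, Il27ra and Il17ra. Il12rb2 (0.18, adjusted p = 0.846), Il20rb (-0.12, adjusted p = 0.774) and Il22ra1 (-0.09, adjusted p = 0.897) were not called. Nor was Il17d, a ligand of the IL-17 family (-0.52, adjusted p = 0.0724). Il10ra, which binds IL-10, had 13.4 to 33.9 CPM in IR (median 19.9), against 4.70 to 6.58 CPM in SHAM (median 5.67), a rise of 1.93 ± 0.24 (adjusted p = 8.38e-06, 6 of 6) and the smallest adjusted p among the members. Its partner Il10rb went the other way, with 101 to 128 CPM in IR and 129 to 149 CPM in SHAM (-0.27 ± 0.07, adjusted p = 0.00288, 6 of 6 below SHAM). That fall depended on scaling: with total counts the difference was 0.04 (adjusted p = 0.725), and on log2(FPKM + 1) it was 0.03 (adjusted p = 0.749). Il17ra, the receptor chain shared by IL-17 cytokines, had 9.16 to 16.0 CPM in IR (median 12.8), against 1.75 to 3.65 CPM in SHAM (median 3.01), a rise of 2.08 ± 0.27 (adjusted p = 1.20e-05, 6 of 6). Il17rc, its partner, rose by 0.35 ± 0.12 (adjusted p = 0.0221, 1 of 6 libraries above SHAM) and was not called without the libraries with Xist (0.28, adjusted p = 0.114), nor without SHAM 2 (0.31), SHAM 6 (0.30) or IR 3 (0.29). Il17re, the IL-17C receptor, was under 1 CPM on average and rose by 1.92 ± 0.51 (adjusted p = 0.00437). Il27ra, the IL-27 receptor, had 3.77 to 4.49 CPM in IR, against 1.41 to 3.61 CPM in SHAM (0.62 ± 0.17, adjusted p = 0.00571, 6 of 6). Il17rd, an inhibitor of growth factor signalling, was 0.14 ± 0.14 higher and did not pass, and neither did Il11ra1 (0.00 ± 0.10, adjusted p = 0.983). With total-count scaling Il11ra1 (0.31), Il17rd (0.44), Il18bp (0.57) and Il34 (0.54) were called higher.

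Of the remaining ligands, Il16, a chemoattractant for CD4+ cells, rose by 0.25 ± 0.10 (adjusted p = 0.0438, 3 of 6) and was not called without the libraries with Xist (0.16, adjusted p = 0.280), with the replicate number as a block, or without any of SHAM 2, 4, 5 and IR 1, 3, 4 (0.20 to 0.23, adjusted p up to 0.134). Il34, an alternative ligand of the macrophage growth factor receptor, was 0.24 ± 0.17 higher (adjusted p = 0.269). The 31 members under the filter had at most 147 counts over the 18 libraries. Il1a was the highest of them, with 17 counts in IR+Decursin, 123 in IR and 7 in SHAM, and IR 2 held 73 of those in IR. Il10 had 33, 49 and 1 counts, Il12rb1 35, 59 and 3, and Il27 10, 34 and 2. Il17a was counted in IR alone, with 13 counts in 3 libraries, and a count of 0 in the other groups allows up to 3. Il13ra2, Il17re and Il36g stand outside the rule for genes given in full and are named because they were called.

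Genes that work with these receptors were counted from fixed lists. Of 8 ligands and receptor chains with other symbols 6 rose in IR and 0 fell, at a median of 1.43: they include Csf2ra, a chain of the GM-CSF receptor (1.503 ± 0.18), Csf1r, which binds IL-34 (1.35 ± 0.17), and Crlf2, a chain of the TSLP receptor (0.84 ± 0.11). Of 18 genes of IL-1 and IL-18 maturation and signalling 8 rose and 3 fell, at a median of 0.26. The adaptor gene Myd88 rose by 1.12 ± 0.15, the kinase gene Irak4 by 1.12 ± 0.17 and Nfkb1, a subunit of NF-kappaB, by 0.35 ± 0.06. The 3 that fell, named after their values were seen, were Tollip (-0.35), Irak1 (-0.28) and Map3k7 (-0.27). Of 11 JAK and STAT genes 8 rose and 2 fell. Jak3, the kinase on the common gamma chain, rose by 0.49 ± 0.10, Stat2 by 0.69 ± 0.17 and Tyk2 by 0.40 ± 0.11. The 2 that fell, named after their values were seen, were Stat5a (-0.41) and Stat5b (-0.28). Of 7 feedback inhibitors 3 rose and 0 fell: the phosphatase gene Ptpn6 (2.25 ± 0.28), Socs1 (1.85 ± 0.29) and Socs3 (2.51 ± 0.44). Of 4 IL-17 adaptors only Traf5 rose (0.55 ± 0.16). Of 7 tested genes that IL-4 and IL-13 induce in macrophages 4 rose and 0 fell, among them Arg1 (9.78 ± 1.48), Clec10a (2.04 ± 0.24) and Mrc1 (1.17 ± 0.18), a macrophage marker too.

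Markers of leukocytes moved with these genes. All 12 macrophage markers rose in IR, with a summed level of 1466 to 3024 CPM in IR, against 478 to 653 CPM in SHAM. All 7 monocyte markers rose (115 to 268 CPM in IR and 31.4 to 42.8 CPM in SHAM). Of 7 neutrophil markers tested 4 rose (26.6 to 206 and 1.75 to 55.4 CPM), and within SHAM the sum was highest in SHAM 5 and SHAM 2. All 7 T and NK cell markers tested rose (2.99 to 13.2 and 0.912 to 1.94 CPM). All 8 fibroblast markers rose (5452 to 8171 and 1212 to 1477 CPM), whereas all 10 cardiomyocyte markers fell (39966 to 55322 and 73963 to 87878 CPM). Dendritic cell markers rose in 4 of 6, mast cell markers in 2 of 6, lymphatic and mesothelial markers in 5 of 8 with 1 lower, the B and plasma cell list in 1 of 5, and the list of type 2 innate lymphoid cells and eosinophils in 1 of 2 tested. Endothelial markers were higher in 1 and lower in 2 of 7, and smooth muscle and pericyte markers lower in 4 of 7. None of the macrophage, monocyte, neutrophil or T cell markers was at 0 in a whole group. Prg2, an eosinophil granule gene, was at 0 in SHAM, and no lung epithelium marker passed the filter. The part of these cells in the changes of the interleukin genes was not tested.

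**Figure D4:**
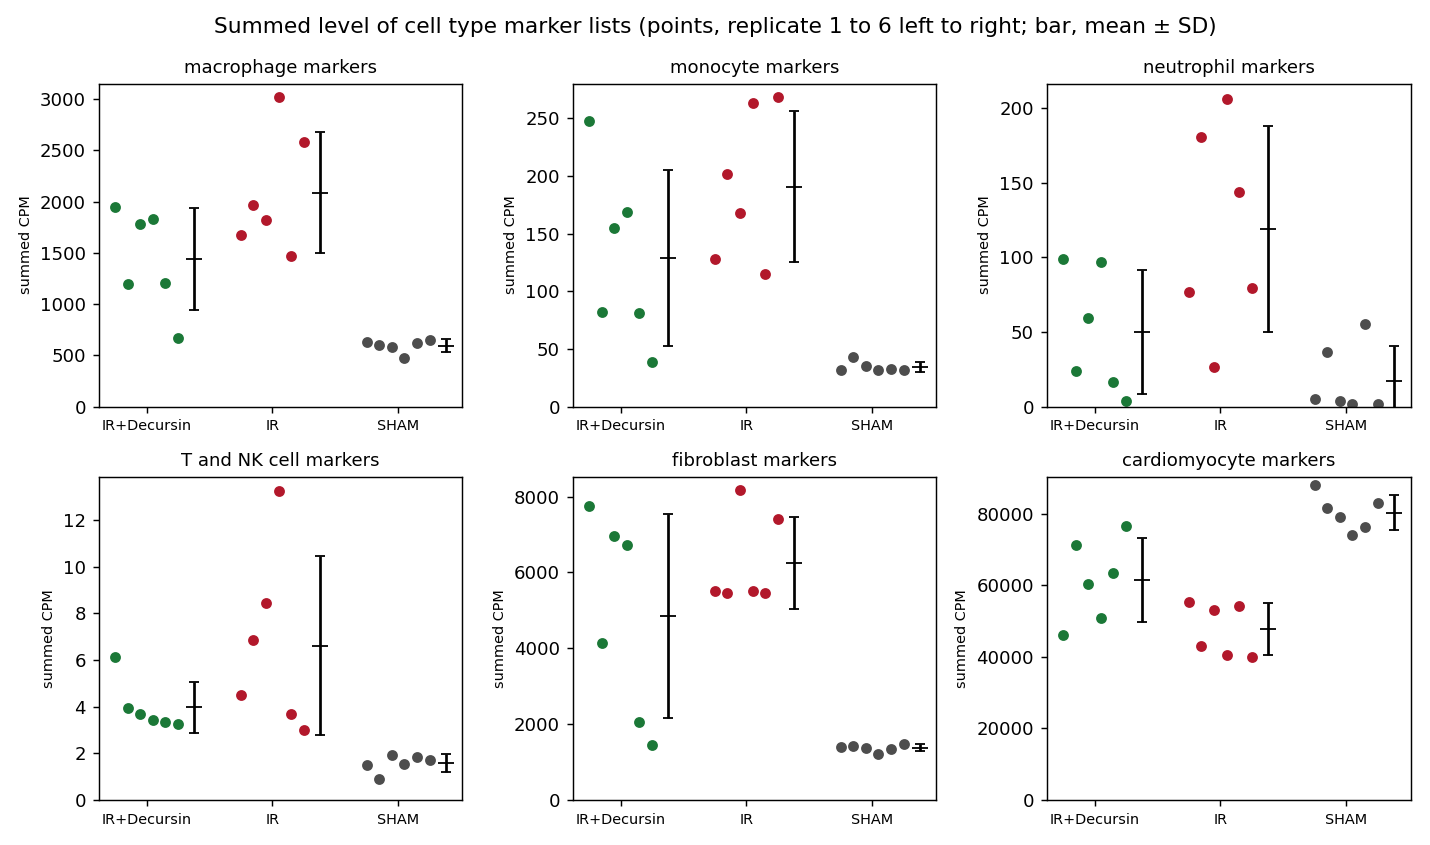
Summed CPM of 6 marker lists in each library (points, replicates 1 to 6 from left to right, with mean ± SD of 6 libraries, cut at 0) in IR+Decursin, IR and SHAM, each panel with its own axis from 0. Macrophage, monocyte and fibroblast sums in IR lie above SHAM in every library and IR+Decursin 6 is the lowest of its group in 5 of the 6 lists, whereas its cardiomyocyte sum is the highest of its group.

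IR+Decursin against SHAM asks what differed from sham hearts under treatment. Of the 39 members 21 rose (53.8%) and 1 fell (2.56%), where 29.3% of all genes were called, 17.5% higher and 11.8% lower (2647 and 1774 genes, against 4780 and 377 with total-count scaling, which moved the median of all genes to 0.22), and the median was 0.56, against -0.00 for all genes. This comparison shares the SHAM libraries with the one above. Every library lay above SHAM in 3 members, Il10ra, Il33 and Il7r (4.44% of all genes), and every one below in Il10rb (2.9%). Il10ra ran from 7.97 to 22.1 CPM in IR+Decursin (1.36 ± 0.24, adjusted p = 0.000681). Il33 ran from 12.2 to 42.0 CPM (1.55 ± 0.30, adjusted p = 0.00169), with IR+Decursin 6 and 5 nearest to the SHAM maximum of 11.49 CPM. Il7r ran from 0.350 to 3.99 CPM, with its lowest library just above the highest SHAM library. It rose by 2.61 ± 0.68 (adjusted p = 0.00868), and by 1.78 without IR+Decursin 1 (adjusted p = 0.0295). On log2(FPKM + 1), a scale that shrinks low genes, Il7r was not called (0.31, adjusted p = 0.218).

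Most other receptor genes that rose did so in 4 or 5 of the 6 treated hearts. Il3ra had the smallest adjusted p (1.04 ± 0.18, adjusted p = 0.000610, 5 of 6), followed by Il10ra, Il21r (2.08 ± 0.40, adjusted p = 0.00125, 5 of 6) and Il17ra with Il33 (Il17ra at 1.34 ± 0.27, adjusted p = 0.00171, 5 of 6). Il1rn rose by 3.01 ± 0.69 (adjusted p = 0.00411, 5 of 6), and by 2.41 without IR+Decursin 1 (adjusted p = 0.0118). It was not called on log2(FPKM + 1) (0.65, adjusted p = 0.0631). Il1r1 rose by 1.17 ± 0.30 (adjusted p = 0.00867, 4 of 6) and Il4ra by 1.21 ± 0.32 (adjusted p = 0.00949, 4 of 6). IR+Decursin 5 and 6 had 17.0 and 16.4 CPM of Il1r1 and 28.3 and 17.6 CPM of Il4ra, within the SHAM ranges of 13.5 to 24.6 and 13.8 to 31.5 CPM. Il1r2 had 0.0617 and 0 CPM in the same pair of hearts, against 0.943 to 3.26 CPM in the other 4 (3.29 ± 0.99, adjusted p = 0.0193), and 4.01 without SHAM 5 (adjusted p = 0.0163). Blocking on the replicate number ended the call of Il1r2 (3.32, adjusted p = 0.0714), and it was not called on log2(FPKM + 1) either (0.56, adjusted p = 0.0711).

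Further members called higher were Il2rg (0.83), Il1rl2 (1.16), Il18 (1.71), Il18rap (2.12), Il18r1 (2.44), Il17re (2.06), Il36g (2.92), Il17rc (0.39), Il27ra (0.49) and Il34 (0.49), as log2 fold changes. On log2(FPKM + 1) Il18 (0.36, adjusted p = 0.0838) and Il18r1 (0.17, adjusted p = 0.191) were not called, and Il18r1 was not called on log2(FPKM + 0.1) either (0.93, adjusted p = 0.0566). Il13ra2 had 69 counts in IR+Decursin and 0 in SHAM, at least 18.7-fold higher against the floor of 3 counts, with 0 in IR+Decursin 5 and 6. Without the libraries with Xist, Il17rc (0.35, adjusted p = 0.0518), Il27ra (0.51, adjusted p = 0.0622), Il34 (0.51, adjusted p = 0.0538) and Il36g (3.02, adjusted p = 0.0536) were not called, and Il15ra was called lower (-0.24, adjusted p = 0.0269). Without IR+Decursin 1, Il36g (adjusted p = 0.0848), Il27ra (0.0874), Il13ra2 (0.0648) and Il10rb (0.0840) were not called. Leaving out any of SHAM 2, 3, 5, 6 or IR+Decursin 3, 4, 5 ended the call of Il27ra as well (highest adjusted p = 0.0874), any of SHAM 1, 2, 4 or IR+Decursin 3, 5 that of Il34 (highest 0.102), any of SHAM 2, 6 or IR+Decursin 2 that of Il17rc (highest 0.0516), and any of SHAM 1, 3, 6 or IR+Decursin 3, 4 that of Il10rb (highest 0.0852). Il36g was 3.70 higher without SHAM 5 (adjusted p = 0.0363). Il10rb fell by 0.20 on the log2 scale (adjusted p = 0.0339), and its direction turned with total-count scaling (0.02, adjusted p = 0.877) and on FPKM. Il1b, at 1.44 to 9.43 CPM, was 1.45 ± 0.73 higher and did not pass (adjusted p = 0.147), Il1rap was 0.52 ± 0.23 higher (adjusted p = 0.0994), and Il15 was -0.37 ± 0.16 (adjusted p = 0.0853). Il1rap was called without IR+Decursin 6 (0.65, adjusted p = 0.0241) and without IR+Decursin 5, and Il15 without IR+Decursin 6 (-0.48, adjusted p = 0.0163).

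Il1rl1 was 0.51 ± 0.26 higher (adjusted p = 0.151). Of the lists, 6 of 8 ligands and receptor chains with other symbols rose, 7 of 18 genes of IL-1 and IL-18 maturation and signalling, 4 of 11 JAK and STAT genes, 3 of 7 feedback inhibitors, 0 of 4 IL-17 adaptors and 4 of 7 genes induced by IL-4 and IL-13, and 0 of any of these lists fell. Macrophage markers rose in 12 of 12, with sums of 666 to 1948 CPM in IR+Decursin, against 478 to 653 CPM in SHAM. IR+Decursin 6 had the lowest sums for macrophages (666 CPM), monocytes (38.7 CPM), neutrophils (3.65 CPM) and fibroblasts (1445 CPM), each within the SHAM range or, for macrophages, next to it. It is the library with the many Gm26917 counts. Without it 22 members rose and 2 fell, against 21 and 1 with it. Calls over all genes grew as well, to 2973 higher and 2158 lower (33.6%), against 2647 and 1774 with it (29.3%).

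**Figure D5:**
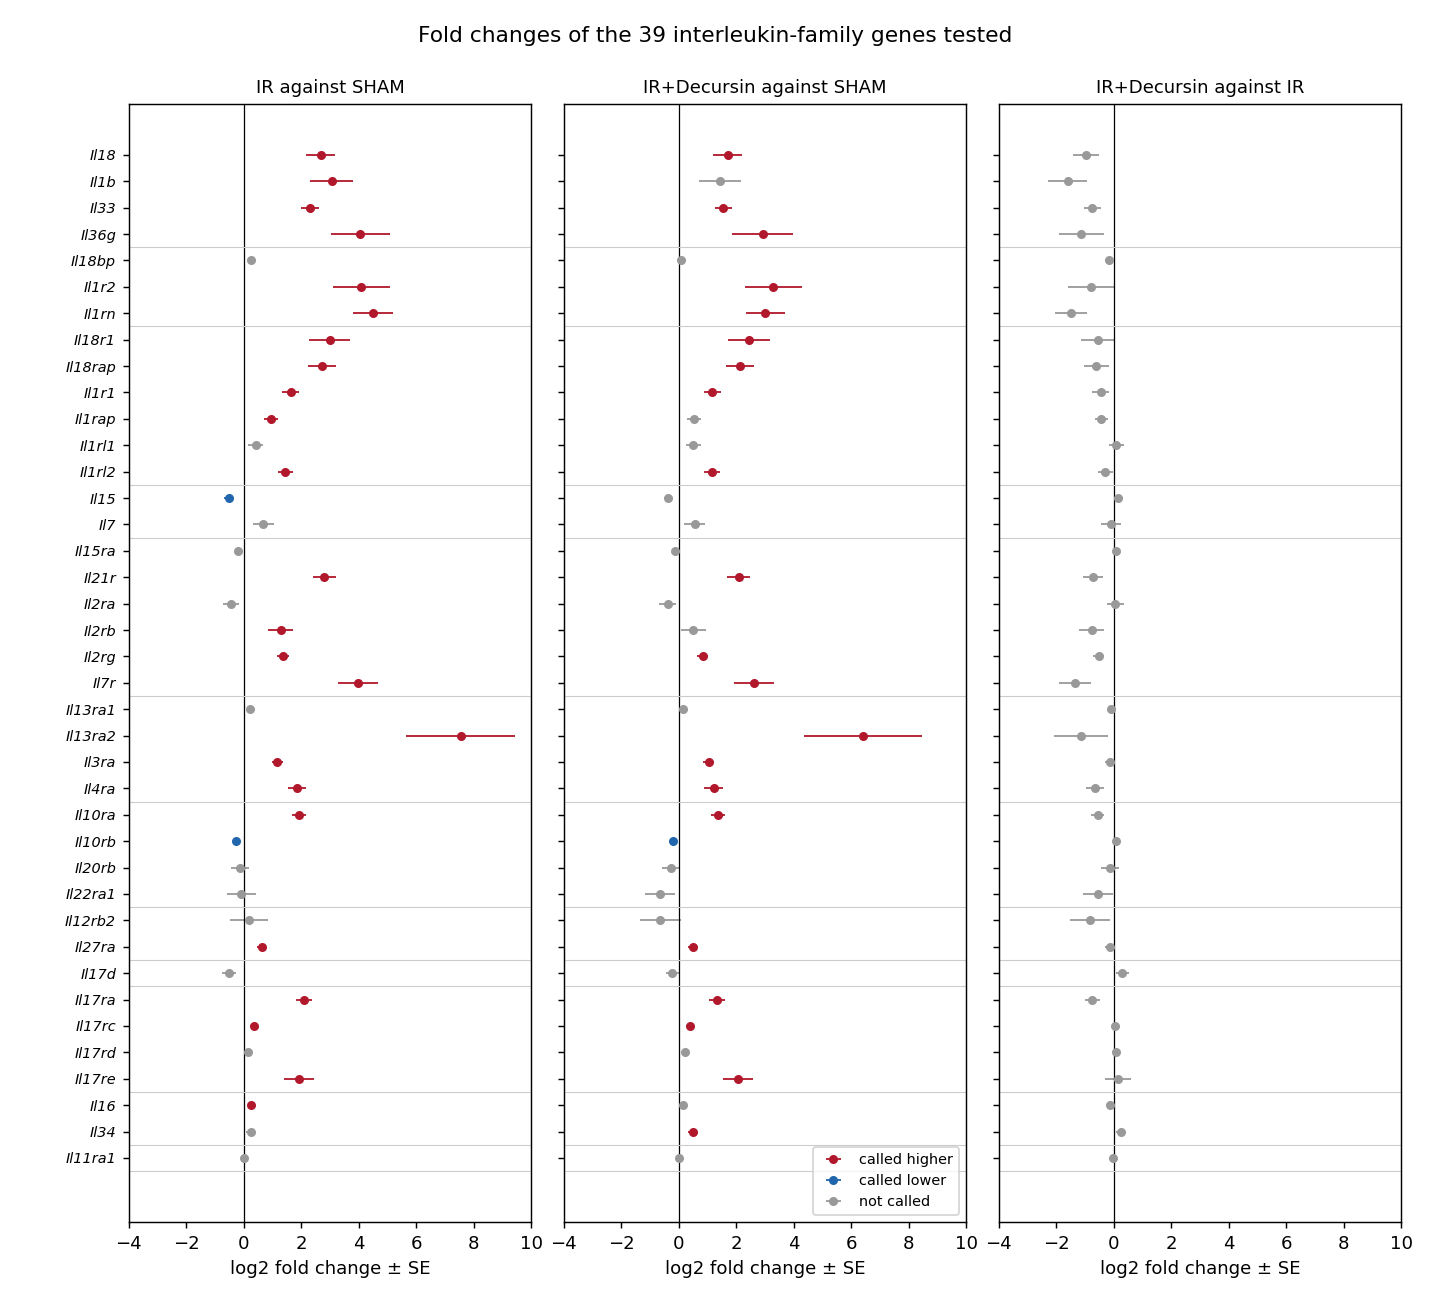
Log2 fold change ± SE of the 39 members tested, grouped by role, for IR against SHAM, IR+Decursin against SHAM and IR+Decursin against IR (red, called higher; blue, called lower; grey, not called). Most points lie right of 0 in the first pair of panels, and in the last 29 of the 39 lie left of 0 with none called.

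IR+Decursin against IR asks what decursin changed after injury. No member was called by edgeR's quasi-likelihood test, and 0 of the 15088 genes were (0%). The smallest adjusted p among members was 0.157, for Il17ra. At an unadjusted p under 0.05 there were 8 members (20.5%), all lower in IR+Decursin. Of all genes 2711 (18.0%) were under it in either direction, so the share of members was near that of all genes. All 8 were called higher in IR against SHAM, which uses the same IR libraries, so the comparisons are not independent. DESeq2 called 0 members, of 22 it gave an adjusted p, and 374 higher and 96 lower genes overall (4.17%). The median log2 fold change of the members was -0.43, against -0.02 for all genes, with 29 of 39 below 0.

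The 8 members were Il17ra, Il1rn, Il2rg, Il33, Il10ra, Il7r, Il1b and Il18. Il17ra ran from 2.68 to 10.8 CPM in IR+Decursin (median 7.41) and from 9.16 to 16.0 CPM in IR (median 12.8). The ranges overlapped, 4 treated libraries lay below every IR library, and the difference was -0.75 ± 0.26 (95% interval -1.29 to -0.20). Il1rn ran from 0.0777 to 5.73 CPM in IR+Decursin (median 1.51) and from 2.43 to 9.38 CPM in IR (median 5.77), a difference of -1.49 ± 0.56 (adjusted p = 0.193, interval -2.69 to -0.29). Il33 ran from 12.2 to 42.0 CPM in IR+Decursin and from 25.7 to 65.0 CPM in IR, with 3 of 6 treated hearts below every IR heart (-0.75 ± 0.29, adjusted p = 0.204, interval -1.36 to -0.13). Il2rg differed by -0.52 ± 0.20 (adjusted p = 0.199), Il10ra by -0.56 ± 0.22 (adjusted p = 0.213) and Il7r by -1.35 ± 0.57 (adjusted p = 0.230). Il1b, with 3.22 CPM at the median in IR+Decursin and 7.39 CPM in IR, differed by -1.61 ± 0.68 (adjusted p = 0.237, interval -3.05 to -0.16), and Il18 by -0.97 ± 0.45 (adjusted p = 0.265). In each of these the intervals leave room for differences from near 0 to more than the estimate.

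Single libraries weighed on this comparison. Without IR+Decursin 1, 3 of the 39 members were called lower: Il7r (-2.18, adjusted p = 0.0215), Il2rg (-0.72, adjusted p = 0.0255) and Il1rn (-2.09, adjusted p = 0.0356). Of all 15207 genes then tested, 280 were called lower and 696 higher, 6.42% in either direction. IR+Decursin 1 was the highest treated library for each of them, with 3.99 CPM of Il7r, 32.4 CPM of Il2rg and 5.73 CPM of Il1rn, and also for the macrophage (1948 CPM), monocyte (248 CPM), T and NK cell (6.12 CPM) and fibroblast (7745 CPM) sums. Without the libraries with Xist 2 members were under an unadjusted p of 0.05, and 0 were called. The differences were then -0.21 for Il10ra (adjusted p = 0.783), -0.82 for Il7r (adjusted p = 0.725), -0.69 for Il18 (adjusted p = 0.718), -0.37 for Il2rg (adjusted p = 0.644) and -0.21 for Il2rb (adjusted p = 0.889), whereas Il17ra (-0.74), Il33 (-0.85), Il1rn (-1.38) and Il1b (-1.53) moved less. No cell marker was called either. Among leukocyte lists, medians were -0.52 for the 12 macrophage markers, -1.17 for the 7 neutrophil markers and -0.82 for the 7 monocyte markers. They were -0.60 for the 7 T and NK cell markers tested, -0.61 for B and plasma cell and -0.52 for dendritic cell markers. Mast cell markers (-0.04) and the list of type 2 innate lymphoid cells and eosinophils (0.01, with 2 tested) stood near 0. Fibroblast markers had a median of -0.21, and the medians were above 0 for cardiomyocyte (0.33), smooth muscle and pericyte (0.31) and endothelial markers (0.08). Their part in the differences was not tested.

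Several well-counted members differed little between the treated and untreated injured hearts, with narrow intervals. These were Il10rb (0.07, interval -0.08 to 0.22), Il11ra1 (-0.01, -0.22 to 0.20), Il13ra1 (-0.08, -0.30 to 0.14), Il15ra (0.09, -0.13 to 0.30), Il16 (-0.11, -0.33 to 0.10), Il17rc (0.04, -0.22 to 0.29), Il17rd (0.08, -0.21 to 0.38), Il18bp (-0.16, -0.47 to 0.15) and Il15 (0.15, -0.18 to 0.49). For Il1r1 (-0.45, -1.08 to 0.17), Il4ra (-0.64, -1.30 to 0.01), Il21r (-0.72, -1.49 to 0.05), Il1rap (-0.43, -0.91 to 0.06) and Il1r2 (-0.79, -2.47 to 0.89) the intervals were wider and held 0. Those of Il27ra (-0.13, -0.49 to 0.23), Il3ra (-0.13, -0.50 to 0.24), Il1rl2 (-0.29, -0.83 to 0.25), Il34 (0.25, -0.11 to 0.61), Il2rb (-0.77, -1.67 to 0.13), Il18rap (-0.60, -1.51 to 0.31) and Il18r1 (-0.55, -1.83 to 0.72) held 0 too. Among the log2 count ratios, Il18bp to Il18 had a median of 3.27 in IR+Decursin (2.19 to 6.40), against 2.51 in IR (1.71 to 3.38), Il1rl1 to Il33 had -3.83 (-5.36 to -3.14), against -4.96 (-5.49 to -4.17), and Il1rn to Il1b had -0.86 (-3.91 to 0.37), against -0.995 (-1.83 to 1.71). All of these overlapped.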

How the data were processed

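The deposited tables hold read counts, not normalized, and FPKM for 25731 gene symbols in 18 libraries. Per the submitters' processing notes the tools were fastp, HISAT2 and HTSeq on the mouse build GRCm39; for versions, annotation release and strand setting, nothing is given in the sources used. The deposited FPKM equal the counts divided by gene length and by the library's total (largest relative deviation 1.58e-09), so they carry no factor for library make-up.

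Counts were tested with edgeR 4.0.16 (R 4.3.3): filterByExpr by group (15088 genes), TMM factors, and 1 robust quasi-likelihood fit of all 18 libraries with a mean per group (15 residual degrees of freedom), two-sided, with Benjamini-Hochberg adjustment over all genes tested. A gene was called where the adjusted p was under 0.05. The SE of a log2 fold change is its size over the root of the F statistic, and 95% intervals use 15 degrees of freedom. CPM use TMM factors and the full library totals. The fit was tested on a simulated IR against SHAM, with 1 fixed spread for all genes that was not matched to these libraries. It recovered 32.8% of 67 genes changed 1.5-fold, 91.0% of 67 changed 2-fold and 100% of 66 changed 4-fold. Of 14934 genes run 14 were called falsely. Alternatives included DESeq2 1.42.0 and limma 3.58.1 (voom, and limma-trend on log2 FPKM with pseudocounts of 1 and 0.1).

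The members, lists and tests were chosen with earlier results of these data known. Full values go to members called in at least 1 comparison with a group mean of at least 1 CPM, and to members called in none with a group mean of at least 3 CPM (29 members). Pathway genes named are up to 3 of smallest adjusted p in each list. The replicate numbers mark separate animals and were not used to pair the groups in the main fit. Deviations from the group mean correlated at -0.52 to 0.41 between libraries with the same number. Libraries with different numbers were not compared, so these values cannot decide whether the numbers pair the groups. The labels' batches each hold 1 group, and no batch term can be fitted. Reference sequences and gene order are from RefSeq for GRCm38.p6, an older build than the files'.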

Additional observations from a re-analysis of the deposited data

Results flagged for a closer look

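In 8 of 87 sets of 6 libraries (29 members in 3 groups), 1 library stood apart from the rest of its group by more than Dixon's 95% limit for 6 samples, which chance passes in about 1 of 20 sets. Il15ra had 26.3 CPM in IR+Decursin 2 (next 19.3), and Il16 had 12.8 CPM in IR+Decursin 5 (next 10.97). Il1b had 9.43 CPM in IR+Decursin 4 (next 4.42), and Il7r had 3.99 CPM in IR+Decursin 1 (next 1.21). In IR, Il17rc had 8.02 CPM in IR 3 (next 6.56) and Il18bp had 18.6 CPM in IR 4 (next 11.6). In SHAM, Il17ra had 1.75 CPM in SHAM 1 (next 2.94) and Il3ra had 5.67 CPM in SHAM 6 (next 3.73). IR 3, IR 4 and IR+Decursin 2 are the libraries with Xist.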

How the results depend on the processing

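Over the alternatives that tested the same 39 members, 21 to 31 rose in IR against SHAM and 16 to 26 in IR+Decursin against SHAM. Calls over all genes moved too. In IR against SHAM 3808 of 15088 genes rose in the main fit. With total-count scaling and on log2(FPKM + 0.1) (31 members each) 7004 and 6955 rose, and without the libraries with Xist (21 members) 3195 of 15239. In IR+Decursin against SHAM 2647 rose in the main fit, 4780 with total-count scaling (26 members) and 3923 on log2(FPKM + 1) (16 members). Where the number tested differed, these were 19 and 14 of 23 with a mean of at least 1 FPKM, 20 and 17 of 32 with the CPM filter, 21 of 36 and 14 of 32 with only the 2 groups compared, and 29 and 19 of 70 without a filter. Over all genes they were, in the same order, 5410 and 3436 of 10987, and 3533 and 2508 of 13281. With only the 2 groups compared they were 3722 of 14620 and 2425 of 14388, and without a filter 3989 and 2460 of 25731. In IR+Decursin against IR 0 rose under each alternative. Over all genes 374 of 11268 rose with DESeq2, 696 of 15207 without IR+Decursin 1, 2 of 15207 without IR+Decursin 4 and 0 under the rest. The number that fell in IR against SHAM (2) was 0 with total-count scaling and in the 3 fits of log2 FPKM (pseudocounts 1 and 0.1, and 1 with a mean of at least 1 FPKM), 1 without the libraries with Xist and 4 with voom and quality weights. Over all genes 3269 fell in the main fit, 1057 with total-count scaling, and 1106, 1101 and 979 of 10987 in the FPKM fits. Without the libraries with Xist 2582 of 15239 fell, and 3562 with voom. The number that fell in IR+Decursin against SHAM (1) was 0 with total-count scaling, without a low-count filter, with the replicate block, with Xist status as a term and in the 3 FPKM fits, and 2 without the libraries with Xist and with voom. Over all genes 1774 fell in the main fit, 377 with total-count scaling, 1303 of 25731 without a filter and 1489 with the block. With Xist status as a term 1584 fell, and 403, 391 and 370 of 10987 in the FPKM fits. Without the libraries with Xist 1356 of 15239 fell, and 2370 with voom. Leaving out 1 library gave 0 to 2 members lower, where 1294 (without IR+Decursin 1) to 2158 (without IR+Decursin 6) of all genes fell. In IR+Decursin against IR, leaving out 1 library gave 0 to 3 lower, the 3 without IR+Decursin 1, where 280 of all 15207 genes fell. The median log2 fold change of the members in IR against SHAM was 1.48 with total-count scaling, 0.39 on log2(FPKM + 1) and 0.51 with the FPKM minimum, where a pseudocount shrinks low genes, and 0.94 to 1.31 with 1 library left out. In IR+Decursin against SHAM it was 0.24 on log2(FPKM + 1). Il10rb turned to 0.0357 (total counts) and 0.03 in each FPKM fit (0.0299, 0.0305 and 0.0299) in IR against SHAM, and to 0.0189 and 0.01 in each FPKM fit (0.0144, 0.0146 and 0.0144) in IR+Decursin against SHAM; total counts and FPKM lack a factor for library make-up. The replicate numbers were not taken to pair the animals in the main fit. With the replicate block 23 members rose and 2 fell in IR against SHAM (3591 and 3124 of all 15088 genes). In IR+Decursin against SHAM 19 rose and 0 fell (2385 and 1489 of all genes), and in IR+Decursin against IR 0 members and 0 of all genes were called.

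Low counts limit the 31 members under the filter. Leaving out 1 library moved a called fold change by over 1.5 times for Il1b, Il1r2, Il1rn, Il18r1, Il36g and Il7r, and the cause was not tested.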
